A study of Canis lupus familiaris with 6 samples.

Results

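The unfolded protein response and the integrated stress response were followed through 10 transcripts, chosen by symbol with earlier results of these data known, in RNA sequencing of canine melanoma lines. They were the chaperones HSPA5 and HSP90B1, the co-chaperone DNAJB9, the degradation adaptor HERPUD1, the transcription factors XBP1, ATF4 and DDIT3, and the targets ASNS, TRIB3 and CHAC1. Of the 10, 9 were matched to a row by symbol and all 9 passed the filter on low counts. XBP1 is not analysed here. The whole table held 30951 genes, of which 12270 were tested. The groups were podoplanin knockout (KO) cells of the line CMM12 (2 libraries, KO 1 and KO 2), the CMM12 control (1 library, genotype WT), podoplanin KO cells of the line CMM2 (2 libraries, KO 1 and KO 2) and the CMM2 control (1 library, genotype WT). The labels name no treatment or time, and do not say how the KO was made, whether a KO line is a single clone, or whether libraries stem from separate cultures. P-values therefore measure only the spread between these 6 libraries, which may be technical or clonal.

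Secreted and membrane proteins fold in the endoplasmic reticulum (ER), where HSPA5 (BiP) and HSP90B1 (GRP94) act as chaperones. When unfolded proteins build up, the sensors ATF6, IRE1 and PERK start the unfolded protein response, which raises chaperone and degradation genes and, through PERK, phosphorylates the translation factor eIF2. The same phosphorylation by other kinases, for example when amino acids run short, is called the integrated stress response. It favours translation of ATF4, which turns on DDIT3 (CHOP) and genes of amino acid supply such as ASNS. These roles are known from human and mouse cells. In melanoma this network has been studied for its links to nutrient limitation and to drug treatment.

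The podoplanin transcript (PDPN), read first as a check of the labels, lay below its control in each KO library. It had 15.2 and 9.98 CPM (counts scaled to a common library size) in CMM12 KO cells, against 87.7 CPM in the CMM12 control. In CMM2 KO cells it had 5.59 and 5.58 CPM, against 20.2 CPM in the CMM2 control. Across lines its log2 fold change was −2.36 (SE 0.28, adjusted p = 0.288 by edgeR and 4.21e-08 by DESeq2). The libraries held 9732927 to 11807835 estimated counts, so that 1 count was worth 0.0863 to 0.0979 CPM. Among 12 melanocyte markers, MITF had 10.7 to 21.7 TPM (a level per transcript length, scaled to a common total) in every library. The other 11 were at 5.61 TPM or less, with DCT and KIT at 0 in all 6 libraries and SOX10 at 0.07 TPM or less, so the pigment-cell markers were largely absent from cells labelled melanoma. Leukocyte markers PTPRC, CD3E and LYZ were at 0 in every library, and the row named CD79A alone of that list was high (3150 to 4542 TPM). Whether that row holds reads of a neighbouring gene was not tested. Epithelial markers with a row summed to at most 15.1 TPM and endothelial markers to at most 2.42 TPM.

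On the TPM scale, which allows levels of different genes to be set side by side, the chaperones and ATF4 stood far above the other members. Over the 3 libraries of each line, both genotypes together, HSPA5 averaged 585 ± 78.0 TPM in CMM12 and 760 ± 238 TPM in CMM2 (SD, n = 3 each). HSP90B1 averaged 585 ± 68.1 TPM in CMM12 and 679 ± 58.2 TPM in CMM2, which did not separate from HSPA5 in either line. ATF4 averaged 399 ± 87.5 TPM in CMM12 and 603 ± 74.6 TPM in CMM2. Its highest CMM12 library (452 TPM) lay below the lowest HSP90B1 library of that line (507 TPM), whereas in CMM2 the ranges of ATF4 and HSP90B1 overlapped. HERPUD1 followed at 70.7 ± 13.0 TPM in CMM12 and 54.4 ± 3.09 TPM in CMM2, and DNAJB9 at 39.0 ± 14.2 TPM in CMM12 and 29.0 ± 4.71 TPM in CMM2.

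The order of the remaining members depended on the line. In CMM12, DDIT3 averaged 37.3 ± 20.8 TPM, TRIB3 23.0 ± 5.63 TPM, ASNS 12.9 ± 7.05 TPM and CHAC1 11.7 ± 6.53 TPM (SD, n = 3). In CMM2, ASNS averaged 37.4 ± 12.7 TPM, TRIB3 13.2 ± 6.88 TPM, DDIT3 11.7 ± 0.588 TPM and CHAC1 5.45 ± 5.16 TPM (SD, n = 3). Thus the level of ASNS lay above that of DDIT3 in each CMM2 library, and below it in both CMM12 KO libraries but not in the CMM12 control (21.0 TPM for ASNS and 13.6 TPM for DDIT3). CHAC1 spanned the widest range, with its highest library 12.1 times its lowest, and HSP90B1 the narrowest, at 1.47 times.

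**Figure D1:**
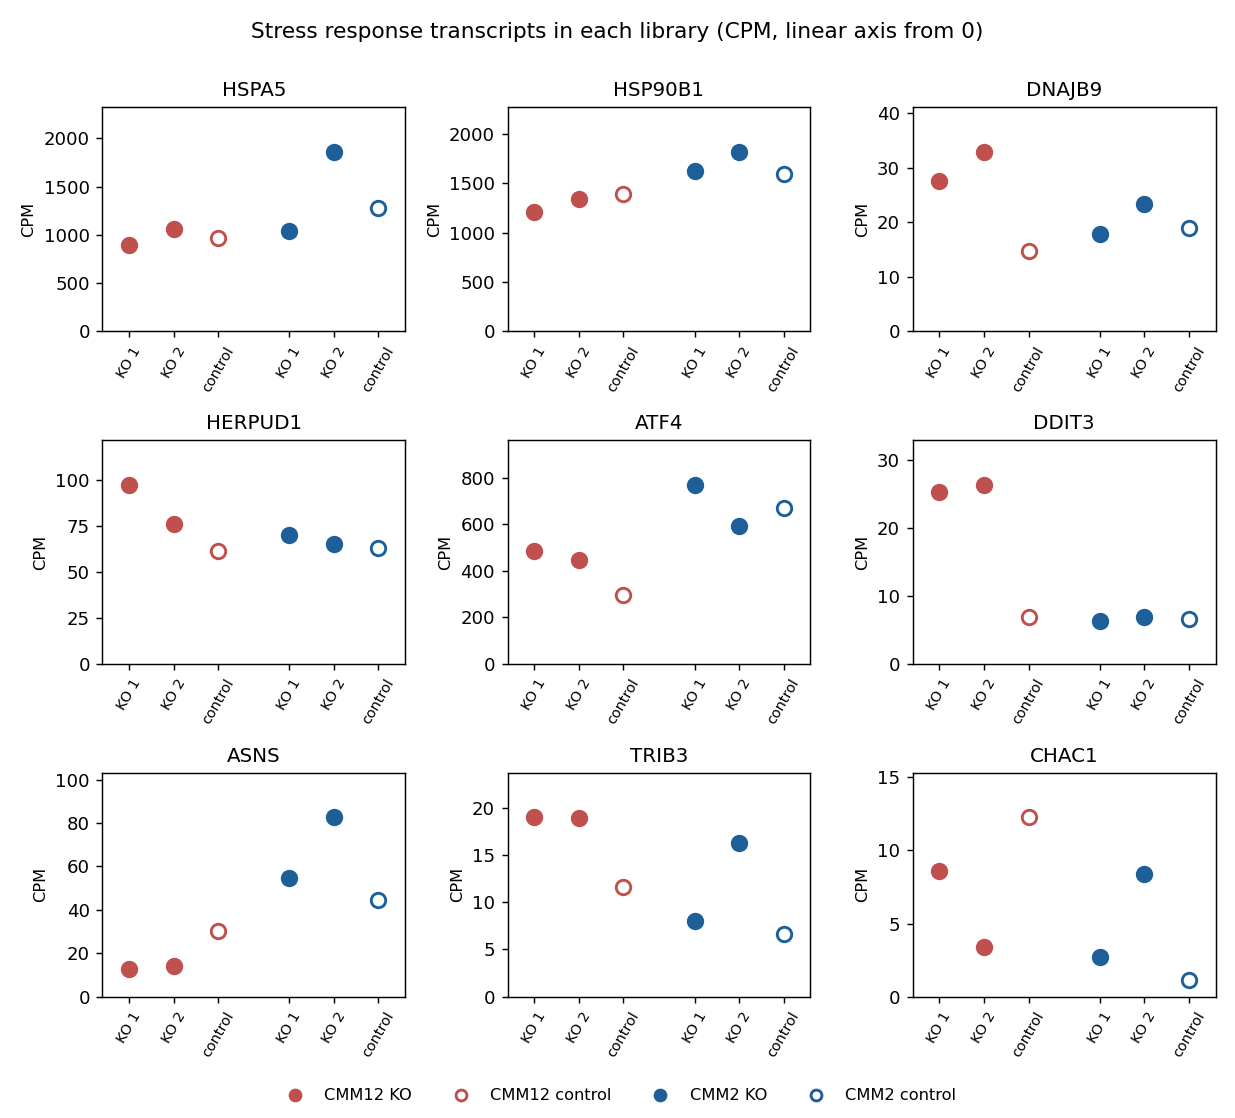
CPM (vertical axis, linear, from 0) of the 9 measured members in each library, with CMM12 in red at the left and CMM2 in blue at the right, filled for KO and open for control. DDIT3 stood at 25.3 and 26.4 CPM in the CMM12 KO libraries and at 6.90 CPM or less in the other 4 libraries, while ASNS was lowest in those KO libraries.

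The lines were compared first, over both genotypes, with edgeR's quasi-likelihood test and Benjamini-Hochberg adjustment over all 12270 genes. In CMM12, DDIT3 was higher, and ATF4 and ASNS were lower, than in CMM2. These were 3 called members of 9 tested, beside a background of 25.8% of all genes called in this comparison, so the members' share was near the background. By direction, 14.6% of all genes were called higher and 11.2% lower in CMM12. The median change of the 9 members was 0.23 on the log2 scale, beside 0.04 for all genes tested. The count moved between 0 and 3 when 1 library was left out: none was called without CMM12 KO 2 or without CMM2 KO 1, and 1, ATF4, without CMM12 KO 1. Without CMM2 KO 1 the count over all genes also fell to 942 higher and 557 lower, against 1792 and 1378 with all libraries. No member had each CMM12 library above each CMM2 library, beside 24.6% of all genes, and 3 had each below, beside 21.5%. In bulk RNA, fewer cells of a type and less RNA per cell cannot be told apart.

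The ER chaperones had log2 fold changes below 0 in CMM12 but were not called. HSPA5 (ENSCAFG00000020196), which binds unfolded chains and holds the stress sensors inactive, had 893, 1065 and 971 CPM in CMM12 KO 1, KO 2 and control, against 1040, 1858 and 1283 CPM in CMM2 KO 1, KO 2 and control. The highest CMM12 library lay just above the lowest CMM2 library, so the lines overlapped. The log2 fold change was −0.51 (SE 0.23, adjusted p = 0.144).

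HSP90B1 (ENSCAFG00000007427), the ER member of the HSP90 family, separated the lines by a small margin. It had 1209, 1343 and 1389 CPM in CMM12 KO 1, KO 2 and control, against 1623, 1813 and 1591 CPM in CMM2 KO 1, KO 2 and control. Each CMM12 library lay below each CMM2 library, as did 21.5% of all genes tested. Its log2 fold change was −0.35 (SE 0.15), with an adjusted p of 0.127 by edgeR and 0.0471 by DESeq2, where 32.2% of all genes were called.

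DNAJB9 and HERPUD1, which serve folding and disposal of ER proteins, did not differ beyond their spread between the lines. DNAJB9 (ENSCAFG00000029976), an HSPA5 co-chaperone, had 27.6, 32.9 and 14.8 CPM in CMM12 KO 1, KO 2 and control, against 17.8, 23.3 and 18.9 CPM in CMM2 KO 1, KO 2 and control. The CMM12 control was the lowest library of all and the CMM12 KO libraries the highest, so the lines overlapped (log2 0.26, SE 0.26, adjusted p = 0.495). HERPUD1 (ENSCAFG00000008980), an adaptor of ER-associated degradation, had 97.6, 76.5 and 61.3 CPM in CMM12 KO 1, KO 2 and control, against 70.1, 65.4 and 63.2 CPM in CMM2 KO 1, KO 2 and control. The CMM12 control again lay at the bottom (log2 0.23, SE 0.17, adjusted p = 0.369).

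The transcription factors ATF4 and DDIT3 were called in opposite directions. ATF4 (ENSCAFG00000001324), the main effector of eIF2 phosphorylation, had 486, 448 and 298 CPM in CMM12 KO 1, KO 2 and control, against 769, 593 and 672 CPM in CMM2 KO 1, KO 2 and control. Each CMM12 library lay below each CMM2 library, as for 21.5% of all genes. The log2 fold change was −0.75 (SE 0.20, adjusted p = 0.0297). The call was lost in the fit of the KO libraries alone (−0.53, adjusted p = 0.148), without either control (−0.54 in each fit, adjusted p = 0.143 when the CMM12 library was left out and 0.146 for the CMM2 library), without CMM12 KO 2 (0.0854) and without CMM2 KO 1 (0.113). Fits without either control take the line effect from the KO libraries alone, so they nearly repeat the first of these fits. ATF4 is controlled largely at translation, which transcript levels do not show.

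DDIT3 (ENSCAFG00000030112), a factor linked to cell death under lasting stress, had 25.3, 26.4 and 6.90 CPM in CMM12 KO 1, KO 2 and control, against 6.38, 6.90 and 6.68 CPM in CMM2 KO 1, KO 2 and control. Only the CMM12 KO libraries stood out. The CMM12 control lay at the level of the CMM2 libraries, and the ranges met at 6.90 CPM. The log2 fold change of CMM12 over CMM2 was 1.36 (SE 0.41, adjusted p = 0.046). The call was lost without either CMM12 KO library, without either CMM2 KO library (adjusted p = 0.114 to 0.189 over these 4 fits) and in the paired fit with the KO number as a replicate block (1.36, adjusted p = 0.0624). Without the control of either line the value was 1.96. Such a fit takes the line effect from the KO libraries alone, so it nearly repeats the fit of those libraries.

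The targets did not move as 1 group. ASNS (ENSCAFG00000002222), asparagine synthetase, had 12.6, 14.0 and 30.4 CPM in CMM12 KO 1, KO 2 and control, against 54.6, 82.6 and 44.5 CPM in CMM2 KO 1, KO 2 and control. Each CMM12 library lay below each CMM2 library, as for 21.5% of all genes, and the distance was widest between the KO libraries. The log2 fold change was −1.77 (SE 0.40, adjusted p = 0.0176), the largest in absolute size among the 9 members. It was lost without CMM12 KO 1 (adjusted p = 0.0709), CMM12 KO 2 (0.0892) or CMM2 KO 1 (0.0555), and reached −2.36 and −2.37 in the fits that left out the control of CMM12 or of CMM2.

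TRIB3 (ENSCAFG00000006965), a pseudokinase that binds ATF4 and DDIT3, had 19.0, 18.9 and 11.6 CPM in CMM12 KO 1, KO 2 and control, against 8.04, 16.3 and 6.59 CPM in CMM2 KO 1, KO 2 and control. CMM2 KO 2 was the library that lay among the CMM12 values. The log2 fold change was 0.70 (SE 0.30, adjusted p = 0.126), 1.05 (adjusted p = 0.0287) without CMM2 KO 2 and 0.46 (adjusted p = 0.305) without CMM2 KO 1.

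CHAC1 (ENSCAFG00000009414), an enzyme that degrades glutathione, had 8.57, 3.42 and 12.2 CPM in CMM12 KO 1, KO 2 and control, against 2.71, 8.42 and 1.15 CPM in CMM2 KO 1, KO 2 and control. Its values rest on few counts, 12 in the CMM2 control (exact 95% Poisson interval 6.2 to 21.0, counting error only) and 142 in the CMM12 control (120 to 167). The lines overlapped across most of their range, and the log2 fold change of 1.06 carried an SE of 0.81 (adjusted p = 0.368). Without CMM2 KO 2 it was 2.02 (adjusted p = 0.0676), and without either control 0.11 (adjusted p = 0.928).

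**Figure D2:**
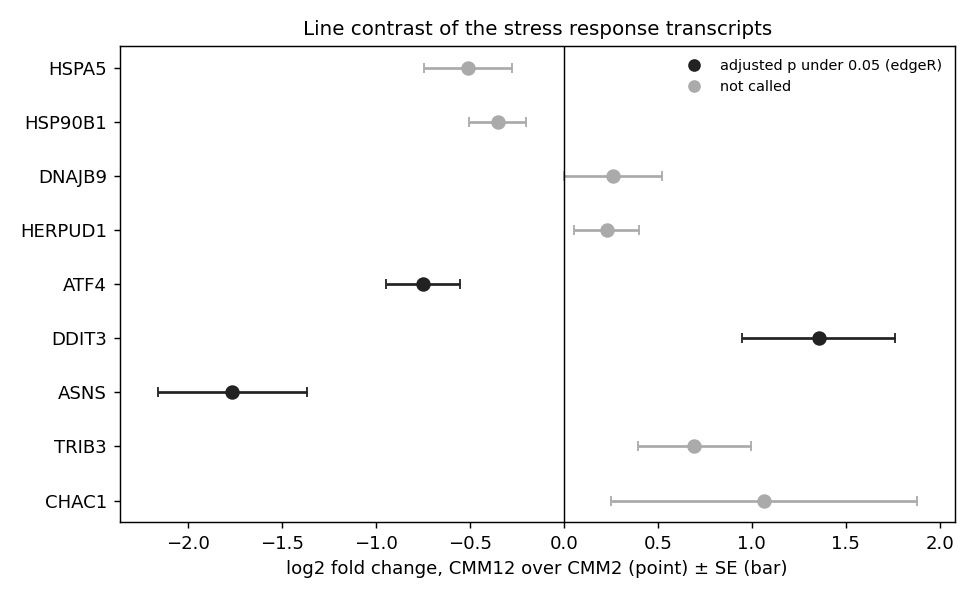
Log2 fold change of CMM12 over CMM2 (horizontal axis) for the 9 measured members, as points with bars of 1 SE from edgeR. ASNS at −1.77 and ATF4 at −0.75 lay below 0 and DDIT3 at 1.36 above it as called members, drawn dark; the 6 others were not called.

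Because a line's libraries hold both genotypes, the controls were also set side by side, as single libraries with no test and with intervals that cover counting error only. The ratio of the CMM12 control to the CMM2 control was 1.03 for DDIT3 (95% interval 0.74 to 1.44), so the higher DDIT3 level of CMM12 was that of its KO libraries. For ASNS the ratio was 0.683 (0.593 to 0.786), whereas the KO libraries averaged 13.3 CPM in CMM12 and 68.6 CPM in CMM2. ATF4 stood at a ratio of 0.444 (0.427 to 0.463), with KO means of 467 CPM in CMM12 and 681 CPM in CMM2. CHAC1 gave a ratio of 10.7 (5.93 to 21.2) between controls, against KO means of 5.996 CPM in CMM12 and 5.56 CPM in CMM2. ATF4 and CHAC1 thus differed most between the controls, and DDIT3 and ASNS most between the KO libraries. In a fit of the KO libraries alone DDIT3 (log2 1.97, adjusted p = 0.0107) and ASNS (−2.36, adjusted p = 0.00818) were called. These were 2 of 9 members, beside 1884 of 11474 genes called in that fit. It uses the same libraries as the KO means above, so it is not a separate check of them. For every member, fits lacking 1 control also take the line effect from the KO libraries alone and nearly repeat this fit.

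Other genes of these pathways were counted in 8 lists that hold none of the 10 members. Of 114 tested genes, 10 were higher and 20 lower in CMM12, which is 30 calls beside the background of 25.8%. Their median log2 fold change was −0.13, beside 0.04 for all genes tested. Among the fits without 1 library, the calls were fewest without CMM2 KO 1. The count over all genes also fell in that fit, as given above. On log2(TPM + 1) the median of all genes lay at 0.15 instead of 0.04, and that of the 114 genes at 0.00017, so their median relative to all genes stayed below 0 on both scales. The sensor list alone had medians of opposite sign, −0.12 by edgeR and 0.02 on log2(TPM + 1). On that scale limma called 2004 genes higher and 934 lower in CMM12, against 1792 and 1378 by edgeR.

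Among 18 sensor and eIF2 genes, 2 were higher and 1 lower in CMM12, beside 14.6% and 11.2% of all genes. ATF6, the sensor that is cut in the Golgi to release a transcription factor, was higher (log2 1.47, SE 0.17, adjusted p = 0.00187). It had 149, 155 and 156 CPM in CMM12 KO 1, KO 2 and control, against 50.6, 65.4 and 50.4 CPM in CMM2 KO 1, KO 2 and control. Each CMM12 library thus lay above each CMM2 library, as for 24.6% of all genes. EIF2B5 and EIF2B1, subunits of the exchange factor that recharges eIF2, changed in opposite directions, at 0.88 (SE 0.15, adjusted p = 0.00618) for EIF2B5 and −0.82 (SE 0.16, adjusted p = 0.0108) for EIF2B1. Among 9 tested stress transcription factors, 2 were higher and 1 lower. CEBPB, a partner of DDIT3 and ATF4, had 27.5, 35.02 and 23.5 CPM in CMM12 KO 1, KO 2 and control, against 4.37, 8.42 and 4.01 CPM in CMM2 KO 1, KO 2 and control (log2 2.37, SE 0.30, adjusted p = 0.00244). JUN was higher (0.93, adjusted p = 0.0445) and the ER-bound factor CREB3 lower (−0.85, adjusted p = 0.00802).

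ER folding genes were called in both directions, 2 higher and 4 lower in CMM12 of 20 tested (median −0.20). The lectin chaperones calnexin and calreticulin parted: CANX was higher (0.93, SE 0.15, adjusted p = 0.00574) and CALR lower (−0.9998, SE 0.18, adjusted p = 0.00913). CRELD2, a stress-induced ER protein, was lower as well (−1.04, SE 0.17, adjusted p = 0.00632). ER-associated degradation had 0 genes called higher by edgeR and 5 lower of 19 tested (median −0.25), while DESeq2 called 1 higher and 5 lower. Of all genes, edgeR called 25.8% in either direction and 11.2% lower, and DESeq2 called 32.2%. The calls in this list were thus near the background when both directions are counted. SELENOS, a membrane partner of the extraction machinery (−1.28, adjusted p = 0.00498), the lectin OS9 (−1.004, adjusted p = 0.00578) and the mannosidase EDEM3 (−1.25, adjusted p = 0.00691) were among the lower ones. Of 14 import genes, 1 was higher, SEC61B of the translocation channel (0.76, adjusted p = 0.0176), and 2 were lower. The lower ones were the signal peptidase subunits SEC11A (−1.18, adjusted p = 0.00319) and SPCS3 (−0.73, adjusted p = 0.015).

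Downstream of ATF4, genes of amino acid supply were called both ways, 2 higher and 3 lower of 16 tested (median 0.01). For this and the next lists, the background by edgeR was 14.6% of all genes higher and 11.2% lower. SHMT2, which makes glycine from serine in mitochondria, was lower (−1.92, SE 0.18, adjusted p = 9.83e-04). The transporter gene SLC38A2 (1.68, SE 0.21, adjusted p = 0.00244) and PYCR1, of proline synthesis (1.72, SE 0.25, adjusted p = 0.00406), were higher. Of 12 aminoacyl-tRNA synthetase genes, which charge tRNAs with amino acids, 0 were called higher by edgeR and 4 lower (median −0.24), and 1 and 4 by DESeq2. CARS (−1.25, adjusted p = 0.00452), MARS (−0.86, adjusted p = 0.00647) and TARS (−0.69, adjusted p = 0.0321) were among the lower ones. Of 6 tested stress output genes, 1 was called, KLHL24 (2.29, SE 0.53, adjusted p = 0.019). SESN2 (−0.68, adjusted p = 0.124) and VLDLR (−0.86, adjusted p = 0.393) followed it by p.

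Some members share their place in the genome with other genes. In the RefSeq assembly UU_Cfam_GSD_1.0, another build than that of the counts, the span of DDIT3 overlaps those of MARS1 and MBD6. How strand was treated in counting is unknown here, so how well reads of overlapping genes were kept apart is unknown too. What overlapping reads add to the DDIT3 counts was not tested. HSPA5, HSP90B1 and DNAJB9 each overlap 1 gene without an established symbol in that assembly, and the other 5 members overlap none.

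**Figure D3:**
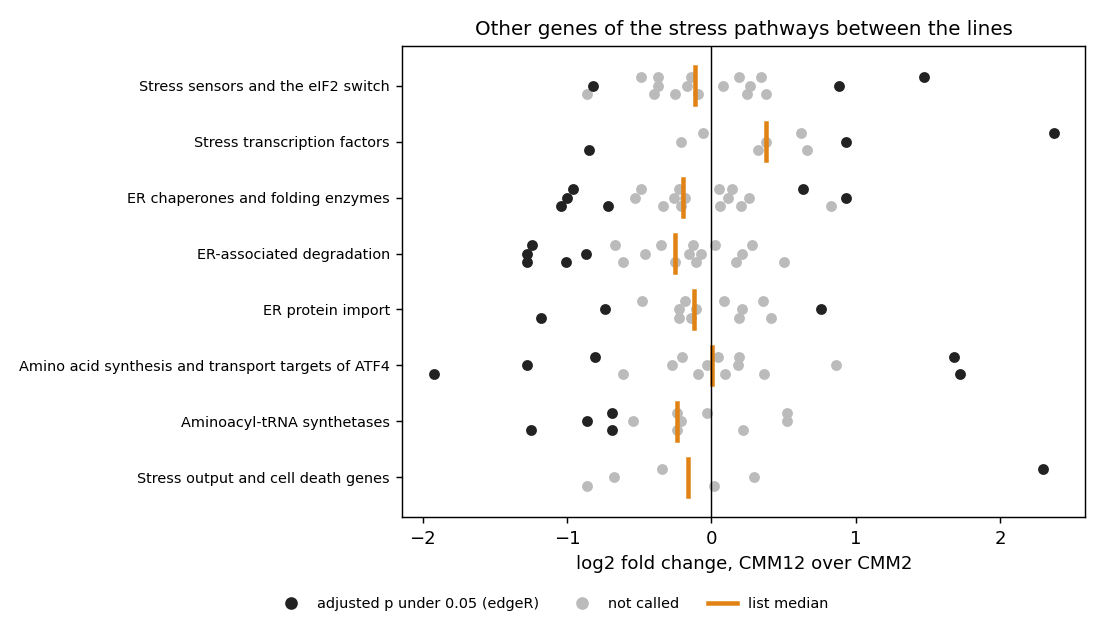
Log2 fold change of CMM12 over CMM2 (horizontal axis) for the 114 tested genes of the 8 pathway lists, 1 point a gene, dark where edgeR called it, with the list median as an orange line. Calls lay on both sides of 0 in 5 lists, below 0 alone in ER-associated degradation (5 genes) and aminoacyl-tRNA synthetases (4 genes), and above 0 in stress output (1 gene). Of all genes, 25.8% were called.

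The KO cells were then set against the control of their own line, which asks whether loss of podoplanin moved the stress response. Each line has 1 control library, so these comparisons rest on it, and the control is assumed to vary like the KO libraries. In CMM12, edgeR called 0 of the 9 members (3 at an unadjusted p under 0.05), beside 0.00815% of all genes called. DESeq2 called 0 members, beside 0.367% of all genes (735 genes were at an unadjusted p under 0.05 by edgeR). The median log2 fold change of the members was 0.51, beside 0.02 for all genes tested.

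DDIT3 had the largest ratio to the control in CMM12, and its KO libraries lay close together. They stood at 25.3 and 26.4 CPM (278 and 270 counts), against 6.90 CPM (80 counts) in the CMM12 control. The log2 fold change was 1.91 (SE 0.37, unadjusted p = 0.0017), which ranked 35 of 12270 genes by p, with an adjusted p of 0.598 by edgeR and 0.102 by DESeq2. Over the alternative fits its adjusted p ran between 0.102 and 0.76 and its log2 fold change between 1.78 and 1.94.

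ATF4 and the targets around it took different directions in CMM12. ATF4 had 486 and 448 CPM in CMM12 KO cells, against 298 CPM in the CMM12 control (log2 0.65, SE 0.28, adjusted p = 0.827). TRIB3 had 19.0 and 18.9 CPM in CMM12 KO cells, against 11.6 CPM in the CMM12 control (0.71, SE 0.49, adjusted p = 0.886). ASNS had 12.6 and 14.0 CPM in CMM12 KO cells, against 30.4 CPM in the CMM12 control (−1.19, SE 0.33, unadjusted p = 0.00973, adjusted p = 0.702). ASNS was thus lower in both KO libraries while ATF4, DDIT3 and TRIB3 were higher, none of them called. CHAC1 had 8.57 and 3.42 CPM in CMM12 KO cells, against 12.2 CPM in the CMM12 control (−1.03, SE 0.80, adjusted p = 0.894).

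Of the ER genes in CMM12, DNAJB9 differed most. It had 27.6 and 32.9 CPM in CMM12 KO cells, against 14.8 CPM in the CMM12 control (log2 1.04, SE 0.35, unadjusted p = 0.0227, adjusted p = 0.784). HERPUD1 had 97.6 and 76.5 CPM in CMM12 KO cells, against 61.3 CPM in the CMM12 control (0.51, SE 0.26, adjusted p = 0.852). The chaperones stayed near the control. HSPA5 had a log2 fold change of 0.01 (SE 0.38) and HSP90B1 of −0.12 (SE 0.24), and 1 HSPA5 library lay on each side of the control. Both KO libraries lay above the control in 5 of the 9 members (DNAJB9, HERPUD1, ATF4, DDIT3 and TRIB3), beside 35.6% of all genes, and below it in 3 (HSP90B1, ASNS and CHAC1), beside 34.2%.

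In CMM2, edgeR called 0 of the 9 members, with 0 at an unadjusted p under 0.05, and 0% of all genes (233 at an unadjusted p under 0.05). DESeq2 called 0 members, beside 0.0489% of all genes. The median log2 fold change of the members was 0.12, beside 0.0014 for all genes tested. DDIT3 had 6.38 and 6.90 CPM in CMM2 KO cells, against 6.68 CPM in the CMM2 control (−0.01, SE 0.35), and ATF4 had 769 and 593 CPM in CMM2 KO cells, against 672 CPM in the CMM2 control (0.02, SE 0.27). For both genes the control lay between the KO libraries.

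The largest values in CMM2 KO cells came from the targets and, in each, from KO 2. CHAC1 had 2.71 and 8.42 CPM in CMM2 KO cells (31 and 89 counts), against 1.15 CPM (12 counts) in the CMM2 control. Its log2 fold change was 2.27 (SE 0.98, unadjusted p = 0.0575, adjusted p = 1). TRIB3 had 8.04 and 16.3 CPM in CMM2 KO cells, against 6.59 CPM in the CMM2 control (0.88, SE 0.50), and ASNS had 54.6 and 82.6 CPM in CMM2 KO cells, against 44.5 CPM in the CMM2 control (0.62, SE 0.34). All 3 targets lay above the control in both KO libraries, as did HSP90B1 and HERPUD1, which makes 5 of 9 members beside 30.1% of all genes. None lay below it in both, beside 30.9%. HSPA5 had 1040 and 1858 CPM in CMM2 KO cells, against 1283 CPM in the CMM2 control, on opposite sides of it (0.18, SE 0.38).

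The summed TPM of 8 fibroblast markers, most of it from 3 collagen genes, ordered the CMM2 libraries as CHAC1, ASNS, TRIB3 and HSP90B1 did. In CMM12 it ordered them as ASNS and HSP90B1 did, but not as CHAC1 or TRIB3. With 3 libraries a line, a shared order is common, and the share of all genes with these orders was not counted. Both KO libraries lay above the control in CMM2 in 30.1% of all genes, and below it in CMM12 in 34.2%. The sum was 787 and 2779 TPM in CMM2 KO 1 and KO 2, against 343 TPM in the CMM2 control, and 820 and 1362 TPM in CMM12 KO 1 and KO 2, against 2185 TPM in the CMM12 control. Of the 5 markers that are not collagens, PDGFRA was the highest, at 24.95 and 36.7 TPM in CMM2 KO cells, against 19.2 TPM in the CMM2 control, and at 10.2 to 20.8 TPM in CMM12. DCN reached 8.98 TPM and LUM 10.7 TPM in CMM12 libraries, against at most 0.27 and 0.59 TPM in CMM2, while FAP was at 0.7 TPM or less and PDGFRB at 3.39 TPM or less in all 6. The part of these genes in the values of the members was not tested.

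**Figure D4:**
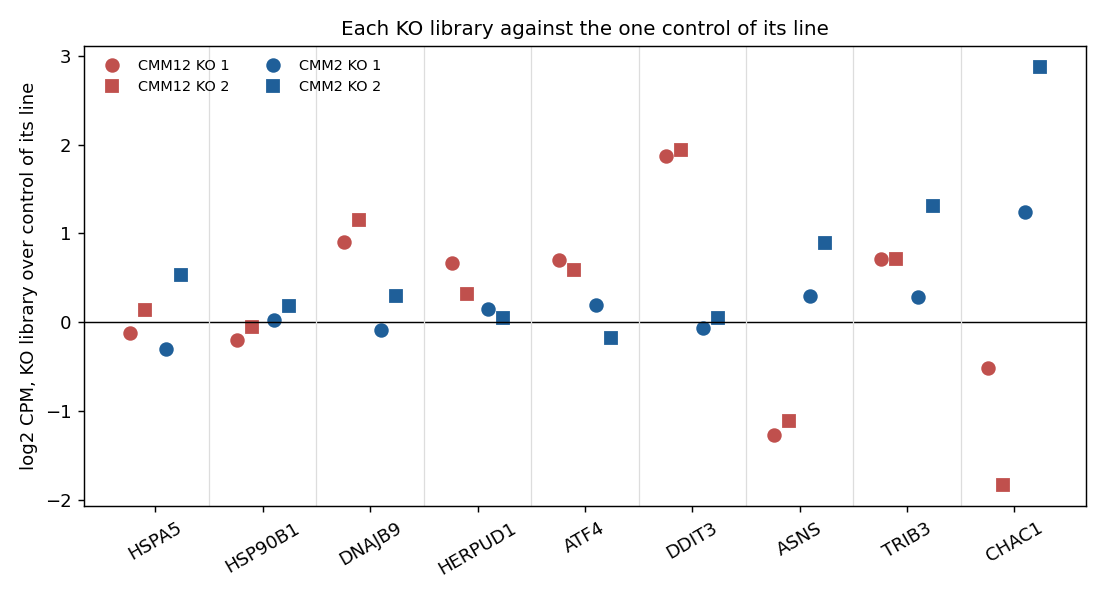
Log2 ratio of CPM of each KO library to the control of its line (vertical axis) for the 9 measured members, circles for KO 1 and squares for KO 2, CMM12 in red and CMM2 in blue. DDIT3 lay at 1.88 and 1.94 in CMM12 and at −0.07 and 0.05 in CMM2, and ASNS and CHAC1 lay below 0 in both CMM12 KO libraries and above 0 in both CMM2 KO libraries.

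Across both lines, with the line as a term of the model, edgeR called 0 of the 9 members (1 at an unadjusted p under 0.05) and 0% of all genes (495 at an unadjusted p under 0.05), and DESeq2 called 0 members beside 0.0733% of all genes. TRIB3 had the smallest p, with a log2 fold change of 0.79 (SE 0.33, unadjusted p = 0.0438, adjusted p = 0.987). TRIB3 and HERPUD1 were the members that lay above the control in all 4 KO libraries, 2 of 9 beside 10.5% of all genes. On the log2 scale the value was 0.30 (SE 0.19) for HERPUD1, 0.56 (SE 0.28) for DNAJB9, 0.32 (SE 0.21) for ATF4 and 0.88 (SE 0.44) for DDIT3. The DDIT3 value came from CMM12, since leaving out the control of that line gave −0.0096. Likewise ASNS, at −0.35 (SE 0.41) with all libraries, was −1.19 in the fit lacking the CMM2 control and 0.62 in the fit lacking the CMM12 control. Those same fits, without the CMM12 control and then lacking that of CMM2, gave 0.12 and 1.03 for DNAJB9, 0.10 and 0.51 for HERPUD1, and 0.02 and 0.65 for ATF4. Such fits take the KO effect from the line that keeps its control, so they nearly repeat the values within that line.

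The difference between the KO effects, CMM12 minus CMM2, was tested directly. edgeR and DESeq2 each called 0 of the 9 members, beside 0% and 0.179% of all genes. By edgeR, 3 members and 471 of all 12270 genes were at an unadjusted p under 0.05. DDIT3 differed by 1.91 (SE 0.50, unadjusted p = 0.00713), ASNS by −1.82 (SE 0.48, unadjusted p = 0.00786) and CHAC1 by −3.29 (SE 1.26, unadjusted p = 0.0368), each with an adjusted p of 1.00 by edgeR. ASNS, CHAC1 and HSP90B1 had both CMM2 KO libraries above and both CMM12 KO libraries below their control, 3 of 9 members beside 10.2% of all genes. The opposite pattern was held by no member and by 1346 of 12270 genes, so the share for either direction is larger than 10.2%. ATF4 (0.63, SE 0.38) and DNAJB9 (0.92, SE 0.47) had unadjusted p-values of 0.146 and 0.098. The rest lay closer to their SE, at −0.16 (SE 0.53) for HSPA5, −0.23 (SE 0.35) for HSP90B1, 0.41 (SE 0.37) for HERPUD1 and −0.17 (SE 0.68) for TRIB3.

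In the 8 pathway lists edgeR called 0 of 114 genes in any of these KO comparisons. DESeq2 called 1, CREB3L1, in the test of the difference, where it called 0.179% of all genes. By edgeR, 9 of the 114 were at an unadjusted p under 0.05 in CMM12 and 5 in each of the other 3 comparisons. Over all 12270 genes these counts were 735 in CMM12, 233 in CMM2, 495 across lines and 471 for the difference. CREB3L1, an ER-bound factor that acts on collagen secretion, had 51.9 and 47.6 CPM in CMM12 KO cells, against 143 CPM in the CMM12 control. In CMM2 KO cells it had 51.7 and 113 CPM, against 20.6 CPM in the CMM2 control. The KO effects therefore ran in opposite directions, at −1.52 (SE 0.43) in CMM12 and 2.00 (SE 0.50) in CMM2. Their difference was −3.52 (SE 0.66), with an adjusted p of 1.00 by edgeR and 5.79e-04 by DESeq2. The fibroblast marker sum given above moved in the same directions, and its part was not tested.

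Among the other genes with the smallest p in their list, SLC1A4, a transporter of serine and alanine, had 26.5 and 22.0 CPM in CMM12 KO cells, against 11.2 CPM in the CMM12 control. In CMM2 KO cells it had 23.5 and 26.6 CPM, against 16.2 CPM in the CMM2 control, so all 4 KO libraries lay above their control (log2 0.86 across lines, SE 0.23, unadjusted p = 0.00715, adjusted p = 0.987). In CMM12, CTH of cysteine synthesis (−0.87, SE 0.25), IARS (−0.69, SE 0.27) and the amino acid sensor kinase EIF2AK4 (−0.78, SE 0.31) had values below 0, with unadjusted p-values of 0.0105, 0.041 and 0.0436. SEC11C lay below 0 as well (−0.43, SE 0.24, unadjusted p = 0.122 by edgeR). SIL1 (0.73, SE 0.27), EDEM3 (0.80, SE 0.32) and VLDLR (2.14, SE 1.07) lay above 0, with unadjusted p-values of 0.0339, 0.0432 and 0.089 by edgeR. VLDLR rests on few counts, 70 and 60 in CMM12 KO cells, against 16 in the CMM12 control. The tRNA synthetase list had 9 of 12 tested genes below 0 in CMM12 (median −0.17) and 8 of 12 below 0 in CMM2 (median −0.10), none called. In CMM2, ALDH1L2, a mitochondrial folate enzyme, had 73.9 and 76.9 CPM in KO cells, against 35.2 CPM in the control (1.10, SE 0.27, unadjusted p = 0.00516, adjusted p = 1). GADD45A, of the stress output list, lay below 0 in CMM2 (−0.81, SE 0.31, unadjusted p = 0.0353 by edgeR). ER folding genes had 17 of 20 above 0 in CMM2 (median 0.17) and 12 of 20 above 0 in CMM12 (median 0.11). Those of ER-associated degradation had 14 of 19 above 0 in CMM2 (median 0.14) and 11 of 19 in CMM12 (median 0.10). Stress output genes had 3 of 6 above 0 in CMM2 (median −0.08) and 6 of 6 in CMM12 (median 0.49). The median of all genes tested was 0.0014 in CMM2 and 0.02 in CMM12, and their share on each side of 0 was not counted. None of these genes was called.

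Members were also compared by pattern over the 6 libraries, as the root mean square (RMS) difference of mean-centred log2 CPM, a description over libraries that share 2 lines. HSPA5 and HSP90B1 were the closest pair at 0.21, followed by DNAJB9 and HERPUD1 at 0.29. The values were not scaled for the range of a gene, so members of narrow range lie close whatever their order of libraries. HSP90B1 and ATF4 came next at 0.37, though in CMM12 the control was the highest library for HSP90B1 and the lowest for ATF4. Closeness by this measure is therefore not read as a shared pattern. The farthest pair was DDIT3 and ASNS at 1.86, both textbook genes downstream of ATF4. For CHAC1, the member with the widest range, the nearest of 8015 candidate genes was GPNMB, a membrane glycoprotein of melanosomes and lysosomes, at an RMS difference of 0.13 beside a median of 1.20 over the candidates. GPNMB had 269.9, 118 and 322 CPM in CMM12 KO 1, KO 2 and control, and 83.0, 246 and 33.03 CPM in CMM2 KO 1, KO 2 and control, in the order of libraries that CHAC1 had. TGFB2, a growth factor gene (0.38), and ABCA1, a cholesterol exporter gene (0.47), came next.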

How the data were processed

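Canine RNA was prepared with a column kit and sequenced as 6 libraries from 1 ug of total RNA each, per the labels. Per the submitters' processing notes, tools were RSEM 1.3.3 and STAR 2.7.3a on CanFam3.1. The authors deposited expected counts of each gene without scaling, and TPM values scaled for transcript length, per the file headers. The annotation release and strand setting are not given in the sources used here.

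Expected counts were rounded, which changed 3.22% to 3.63% of the values of a library. The highest mean count decided where a symbol had several rows. Testing used edgeR 4.0.16 (glmQLFit, glmQLFTest, TMM factors, filterByExpr) in R 4.3.3 over all 12270 genes kept, with Benjamini-Hochberg adjustment at 0.05. Line and KO effects across lines came from additive terms (3 residual degrees of freedom), effects within a line and their difference from 4 group means (2 residual degrees of freedom). Standard errors follow from the quasi-likelihood F. Alternatives were DESeq2 1.42.0, limma 3.58.1 on log2(TPM + 1) and log2(TPM + 0.1), other filters, size factors and spread estimates, a replicate block, and fits without each library. CPM sets 1 gene across libraries and TPM sets genes against each other. Synthetase genes were matched by the older symbols of the files.

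The members, lists and markers were chosen with earlier results of these data known. Genes were named by rule: PDPN, all members, and from each pathway list the 3 with the smallest p between lines and some of those with the smallest p in each KO comparison. For the member with the widest range, the 3 nearest genes with a mean of at least 10 CPM are also named. Pathway counts under each alternative were added after the data had been seen. Promoter motifs were not searched here. Depths were 9732927 to 11807835 counts; intervals cover counting error only.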

Additional observations from a re-analysis of the deposited data

Results flagged for a closer look

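In 3 members both KO libraries lay below the control in CMM12 and above it in CMM2, as in 10.2% of all genes. Among 12270 genes, 1252 had this pattern and 1346 the opposite, CMM12 above and CMM2 below, which no member had. The share of all genes with a pattern of either direction is thus larger than 10.2%. The KO effect of CHAC1, CMM12 minus CMM2, was −3.29 (SE 1.26, edgeR adjusted p 1.00). That of ASNS was −1.82 (SE 0.48, edgeR adjusted p 1.00). That of HSP90B1 was −0.23 (SE 0.35, edgeR adjusted p 1.00), with ratios to the control between −0.20 and 0.19 on the log2 scale in the 4 KO libraries.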

How the results depend on the processing

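Between the lines, 3 members were called, 0 on log2(TPM + 1) without a filter (adjusted p 0.0735 for ATF4, 0.0689 for DDIT3 and 0.0656 for ASNS), and 0 to 3 over the fits without 1 library. No member changed direction between the lines under any alternative run. The KO numbers are not stated to pair the libraries, and KO 1 deviations of the lines correlated at 0.06 across genes. With the number as a replicate block, 2 members were called between the lines, ATF4 and ASNS. In the KO comparisons 0 members were called under every alternative, while the count over all genes ran up to 15 across lines, 6 in CMM2, 75 in CMM12 and 22 for the difference. Some uncalled KO values changed direction. Across lines CHAC1 went to −0.0049 in the bias-adjusted fit. DDIT3 in CMM2 was 0.0093 on log2(TPM + 1), with or without a filter, and 0.0099 on log2(TPM + 0.1). HSPA5 in CMM12 was −0.0039 without a count filter and −0.046 in each TPM fit. Without 1 library each, values across lines ran from −1.03 to 2.27 for CHAC1, −0.12 to 0.11 for HSP90B1, −0.0096 to 1.90 for DDIT3, −1.19 to 0.62 for ASNS and −0.13 to 0.23 for HSPA5. In CMM2 they ran from −0.071 to 0.047 for DDIT3, −0.18 to 0.19 for ATF4, −0.31 to 0.53 for HSPA5 and −0.088 to 0.30 for DNAJB9. HSPA5 ran from −0.12 to 0.14 in CMM12 and from −0.52 to 0.32 for the difference, and TRIB3 from −0.59 to 0.43 for the difference. The effect of a line cannot be fitted without its only control. Across lines, the ends of the ranges of CHAC1, HSP90B1, DDIT3 and ASNS came from fits lacking 1 control. Such a fit takes the KO effect from the other line alone, so those ends nearly repeat the effects within CMM12 and CMM2. The cause of the other shifts was not tested.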
